A study of Drosophila melanogaster with 6 samples.

Results

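Among the protein-coding genes of Drosophila melanogaster that carry only a CG number as their symbol, 19 were well expressed in control testes and stood at 12.5% of control or less after knockdown of either subunit of cleavage factor II, Pcf11 or crowded by cid (cbc). They were chosen by their measured levels: at least 10 CPM (sense-strand reads per 1000000 reads assigned to genes) in both controls, and at most 12.5% of the control mean in Pcf11 knockdown library 2 and in each of the 2 cbc knockdown libraries. The count tables held 17807 genes. Of 2803 CG-numbered genes at 10 CPM or more in both controls, 22 met both limits (0.785%), and the rule set 3 of these aside (CG12506, CG13946 and CG13947), which leaves 19. Because both knockdowns against control chose these genes, their levels against control are a description and carry no test.

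Polyadenylated RNA of whole testes was sequenced in 6 libraries, each from 150 pairs of testes. The 2 controls carried the driver alone (bamGal4). The Pcf11 knockdown carried bamGal4 and a hairpin line against Pcf11 (VDRC 103710), and the cbc knockdown carried bamGal4 and a hairpin line against cbc (BL 77426). Crosses were held at 25 °C for 3 days and the progeny at 29 °C until dissection, in all groups, and the sources used here give no age for the dissected flies. The control had no hairpin, so a knockdown and the mere presence of a hairpin cannot be told apart. The driver acts from late spermatogonia into spermatocytes while the whole organ was sequenced, so fewer cells of a type and less RNA per cell cannot be told apart.

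Pcf11 and cbc, the fly Clp1, form the cleavage factor that helps to cut the nascent transcript at its poly(A) site and to release RNA polymerase II. In the male germ line, spermatocytes transcribe a large set of genes found in few other tissues, and many of these transcripts are stored until the spermatids need them. A CG number is the name a gene received when the genome was annotated, and it says nothing of function. RefSeq (Release 6) listed all 19 as protein-coding. Its synonyms gave a name with a meaning to few: CG1698 was also listed as DmNAT5, a name used for nutrient amino acid transporters, and CG42870, CG43207 and CG43249 were also listed under names of long intergenic noncoding RNAs. No role is stated here for the other members.

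Sense gene reads numbered 76132580 and 73600622 in control, 79053532 in library 2 of the Pcf11 knockdown, and only 18954932 and 20510200 after cbc knockdown. A floor of 3 reads was between 0.0379 and 0.0408 CPM in the 3 deeper libraries and 0.158 and 0.146 CPM in the cbc libraries. The targeted genes fell in their own knockdowns: Pcf11 was at 47.2 and 54.5 CPM in control and 19.3 CPM in its library (log2 change -1.11 ± 0.11), and cbc at 49.7 and 56.7 CPM in control and 4.70 and 3.66 CPM in its libraries (-3.92 ± 0.13). Pcf11 was at 118 and 112 CPM in the cbc libraries. Both cbc libraries were shallower than the others and shared a style of title with library 1 of the Pcf11 knockdown. Library 2 and the controls were titled by a name and a number alone. If the style marks a batch, batch and cbc knockdown cannot be told apart among the libraries with gene counts, against control or against Pcf11 knockdown. The libraries of the Pcf11 knockdown would then differ in it, with library 2 in the style of the controls. The labels name no batch. Library 1 of the Pcf11 knockdown enters through its splice junction reads alone. The labels do not say whether libraries of 1 group came from separate crosses, and the p-values here reflect the spread among these libraries alone, which may be technical. Some hub and cyst markers also moved, as did muscle sheath and spermatid markers, and their values are given at the end.

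Together the 19 genes made up 2989 and 3032 CPM in the controls, 96.0 CPM in Pcf11 knockdown library 2, and 126 and 118 CPM in the cbc libraries. The median gene was at 77.4 CPM in control, with a range from 12.6 to 979 CPM. The median remaining level was 3.19% of control in the Pcf11 library (range 0.228% to 9.52%) and 3.79% in the mean of the cbc libraries (range 0.0436% to 10.4%). The controls lay within 10% of each other for 15 of the 19 genes, and the ratio of control 2 to control 1 ran from 0.855 to 1.45. By the same limit of 12.5%, 2.35% of CG-numbered genes at this control level were that low in Pcf11 library 2 and 1.5% in both cbc libraries.

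**Figure D1:**
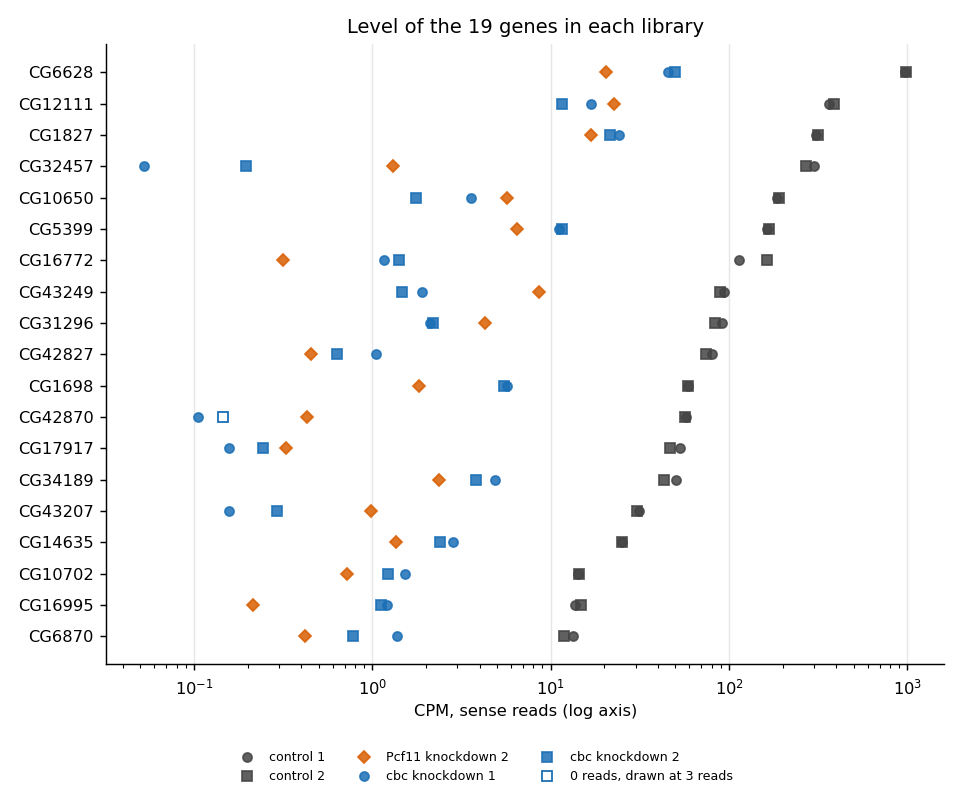
Level of each of the 19 genes in CPM (horizontal log axis), 1 row a gene ordered by control level, with 1 symbol for each of the 5 libraries with per-gene counts. Control symbols lie between 11.9 and 986 CPM and every knockdown symbol of a gene lies to the left of its controls. The open square stands for CG42870, with 0 reads in cbc library 2, drawn at the level of 3 reads.

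CG6628 was the most abundant member (FBgn0036072, BDGP6, chromosome 3L from 10165809 to 10167023, minus strand). It was at 972 and 986 CPM in the controls, at 20.5 CPM in the Pcf11 library and at 45.6 and 49.8 CPM in the cbc libraries. The knockdown libraries lay far below both controls, 47.7-fold lower for Pcf11 and 20.5-fold lower for the mean of the cbc libraries. CG12111 (X, 8570208 to 8570948, minus) was at 364 and 388 CPM in control, 22.8 CPM in the Pcf11 library and 16.9 and 11.7 CPM in the cbc libraries. CG1827 (2R, 9589050 to 9590443, plus) was at 309 and 317 CPM in control, 16.8 CPM in the Pcf11 library and 24.3 and 21.6 CPM in the cbc libraries. These 3 kept the highest absolute levels after knockdown, and all their knockdown libraries were above 10 CPM.

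CG32457 had the lowest share of control left in the cbc libraries, although only 3 members had a higher control level (3L, 22987642 to 22988262, plus). It was at 298 and 271 CPM in control and at 1.30 CPM (103 reads) in the Pcf11 library. Only 1 and 4 reads were left in the cbc libraries, 0.0528 and 0.195 CPM. On summed reads this was 2247-fold lower in cbc knockdown (95% interval 963 to 6921) and 219-fold lower in the Pcf11 library, with intervals that cover counting error only. CG42870 (3R, 21736933 to 21737364, minus), which encodes 94 codons, was at 57.1 and 57.0 CPM in control and 0.430 CPM in the Pcf11 library. It had 2 reads in cbc library 1 and 0 in cbc library 2, where a count of 0 allows up to 0.146 CPM. Summed over libraries the ratio was 1126 (95% interval 312 to 9297).

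CG16772 showed the reverse order of the knockdowns (2L, 19962679 to 19963844, plus). Its controls were at 113 and 164 CPM, the widest gap between controls among the 19 genes. The Pcf11 library had 0.316 CPM (25 reads), and the cbc libraries had 1.16 and 1.41 CPM. Its level in the Pcf11 library was 0.228% of control, the lowest of the members there. CG17917 (3R, 6341968 to 6342873, plus) was at 53.4 and 46.9 CPM in control, 0.329 CPM in the Pcf11 library and 0.158 and 0.244 CPM in the cbc libraries. CG42827 (3R, 23372924 to 23373600, plus) was at 80.4 and 74.3 CPM in control, 0.455 CPM in the Pcf11 library and 1.06 and 0.634 CPM in the cbc libraries. With CG32457 and CG42870, CG16772 and CG17917 make up the 4 genes at or under 1% of control in both knockdowns.

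Intermediate members kept a few CPM. CG10650 (2L, 18993360 to 18995934, minus) was at 187 and 191 CPM in control, 5.72 CPM in the Pcf11 library and 3.59 and 1.76 CPM in the cbc libraries. CG5399 (3R, 15695241 to 15697142, plus) was at 162 and 167 CPM in control, 6.50 CPM in the Pcf11 library and 11.2 and 11.6 CPM in the cbc libraries. CG43249 (3L, 16304282 to 16304662, plus), of 77 codons, was at 93.1 and 88.5 CPM in control, 8.64 CPM in the Pcf11 library and 1.90 and 1.46 CPM in the cbc libraries. CG43249 had the highest share of control left in the Pcf11 library, 9.52%, and 1.85% in the cbc mean. CG31296 (3R, 15530072 to 15531473, minus) was at 91.8 and 83.3 CPM in control, 4.29 CPM in the Pcf11 library and 2.11 and 2.19 CPM in the cbc libraries. CG1698, the gene listed as DmNAT5 (2R, 9793326 to 9798006, plus), was at 58.7 and 59.1 CPM in control, 1.82 CPM in the Pcf11 library and 5.70 and 5.46 CPM in the cbc libraries. These 12 members were the most abundant in control together with CG17917, which ranked next.

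Lower in control were 6 members with between 12.6 and 47.0 CPM. CG34189 (2R, 16754444 to 16754925, plus) was at 50.7 and 43.4 CPM in control, 2.38 CPM in the Pcf11 library and 4.91 and 3.80 CPM in the cbc libraries. CG43207 (2R, 23152748 to 23153318, plus), of 73 codons, was at 31.4 and 30.5 CPM in control, 0.987 CPM in the Pcf11 library and 0.158 and 0.293 CPM in the cbc libraries. CG16995 (2L, 2307948 to 2308872, plus) was at 13.6 and 14.7 CPM in control, 0.215 CPM in the Pcf11 library and 1.21 and 1.12 CPM in the cbc libraries. CG43207 was thus lower in the cbc libraries than in the Pcf11 library, and CG34189 and CG16995 were higher.

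The limit of 12.5% ran through a continuous range of values. Just inside it were CG14635 (X, 844823 to 845297), whose highest knockdown library was at 11.3% of control, CG6870 (2L, 17591315 to 17592299) at 10.9%, and CG10702 (2L, 19064832 to 19069851) at 10.7%. CG14635 was at 25.2 CPM in both controls, 1.37 CPM in the Pcf11 library and 2.85 and 2.39 CPM in the cbc libraries. CG6870 was at 13.3 and 11.9 CPM in control, 0.417 CPM in the Pcf11 library and 1.37 and 0.780 CPM in the cbc libraries, and CG10702 at 14.3 and 14.4, 0.721, and 1.53 and 1.22 CPM. Just outside were CG8665 at 13.7%, CG13044 at 14.0% and CG32712 at 14.9%. CG32712 was at 2.23% of control in the Pcf11 library and stayed outside through the cbc libraries, whereas CG8665 and CG13044 stayed outside through the Pcf11 library. CG13044 lies at 16302490 to 16303178 on 3L, close to the member CG43249.

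Per kilobase of exon the order of control levels changed. CG6628 stayed first at 893 CPM per kb and CG12111 second at 557, CG32457 followed at 458 and CG43249 at 280, ahead of CG1827 at 233. CG10702, which has 4585 bases of exon and 946 codons, was last at 3.13 CPM per kb.

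The direct comparison of the knockdowns asks how far the level left after cbc knockdown differed from that after Pcf11 knockdown. The rule did not use the difference itself, but it capped both knockdowns in the same libraries that are compared here. A gene under the cap in only one of the knockdowns was left out, which limits how far members could differ. The calls among members are therefore shaped by the choice and are not independent of it. Of the 19 members, 8 were lower and 4 higher in cbc than in Pcf11 knockdown by edgeR's quasi-likelihood test (Benjamini-Hochberg adjusted p under 0.05 over 13960 genes), and 7 did not pass. Among all genes tested, 29.7% were lower and 42.2% higher (71.9% either way), and the median log2 difference was 0.27 over all genes and 0.27 over the members. A majority of genes thus differed between the knockdowns, and the share of members called is close to that background. The background genes were not capped by the rule, so no conclusion is drawn from this closeness. The Pcf11 side is 1 library, assumed to vary like the others. Fits were scaled by TMM, whose factors were 0.797 for the Pcf11 library and 1.16 and 1.14 for the cbc libraries, so the scaling moves this contrast: with library totals 11 members were higher and 7 lower, and all genes split into 8514 higher and 2452 lower.

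**Figure D2:**
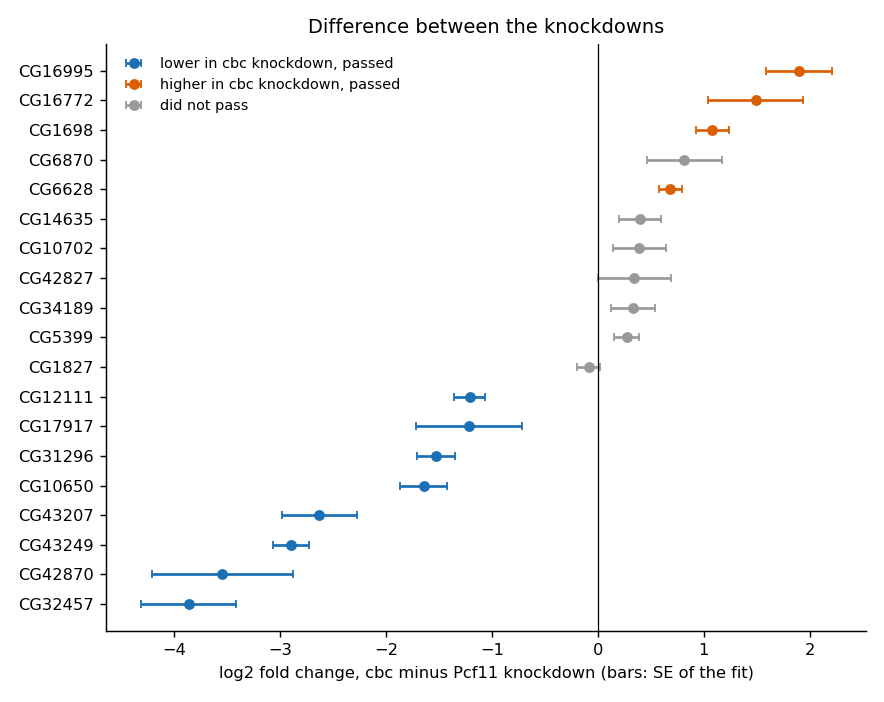
Log2 fold change of cbc minus Pcf11 knockdown for the 19 genes (horizontal axis, points with bars of 1 SE derived from the test statistic), coloured by whether the gene passed. CG32457 at -3.86 and CG42870 at -3.54 lie at one end and CG16995 at 1.90 at the other.

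The members lower in cbc knockdown were led by CG32457, with a log2 difference of -3.86 ± 0.45 (SE, edgeR adjusted p = 1.4e-05), and CG42870 at -3.54 ± 0.66 (edgeR adjusted p = 5.4e-04). The few reads left in cbc knockdown make both sizes depend on the prior count. CG43249 was at -2.90 ± 0.17 (edgeR adjusted p = 7.7e-08), CG43207 at -2.63 ± 0.36 and CG10650 at -1.65 ± 0.23. CG42870, CG43207 and CG43249, those also listed under names of noncoding RNAs, were therefore all in this group. Of the other members under 150 codons, CG16995 was higher in cbc knockdown, and CG6870, CG14635, CG42827 and CG34189 did not pass. CG31296 was at -1.52 ± 0.18 and CG12111 at -1.21 ± 0.15. CG17917, at -1.22 ± 0.50 (edgeR adjusted p = 0.0454), was not stable: over the alternatives it ran from -1.57 without cbc library 2 to 0.02 with unstranded counts.

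Higher in cbc knockdown were CG16995 at 1.90 ± 0.31 (edgeR adjusted p = 2.1e-04), CG16772 at 1.49 ± 0.45 (edgeR adjusted p = 0.0107), the DmNAT5 gene CG1698 at 1.08 ± 0.16 and the most abundant member CG6628 at 0.69 ± 0.11. The other 7 lay between -0.09 for CG1827 and 0.82 for CG6870, with SEs from 0.11 to 0.35. CG1827 was at 0.44 and passed with library totals. With only the 3 libraries compared, 4 members were called lower and 4 higher. Without cbc library 2 the higher members numbered 7.

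Junction reads of Pcf11 knockdown library 1, which the rule did not use, gave a further view of the same knockdown. The library held 10381354 uniquely mapped junction reads. Of the 19 members, 16 have annotated introns, and 14 of these had at least 1 read over an annotated junction. For each gene the junction reads per intron, scaled to the library's junction reads, were divided by the control CPM and set against the median of 6590 spliced genes at 10 CPM or more in both controls. A ratio of at most 12.5% of that median was reached by 9 of the 16 members and by 4.63% of all spliced genes. The median member stood at 11.1% of the median gene. Of the CG-numbered genes under the limit in cbc knockdown only, 0 of 9 spliced genes were that low (median 152%). Of those under it in Pcf11 knockdown only, 12 of 39 were (median 18.5%). This is 1 library with no junction reads of a control beside it, so the ratio mixes the level with how often reads of a gene cross its introns. The control CPM in the ratio is the same value that the rule used to choose the members, so the ratio is not independent of the choice. There is no test.

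**Figure D3:**
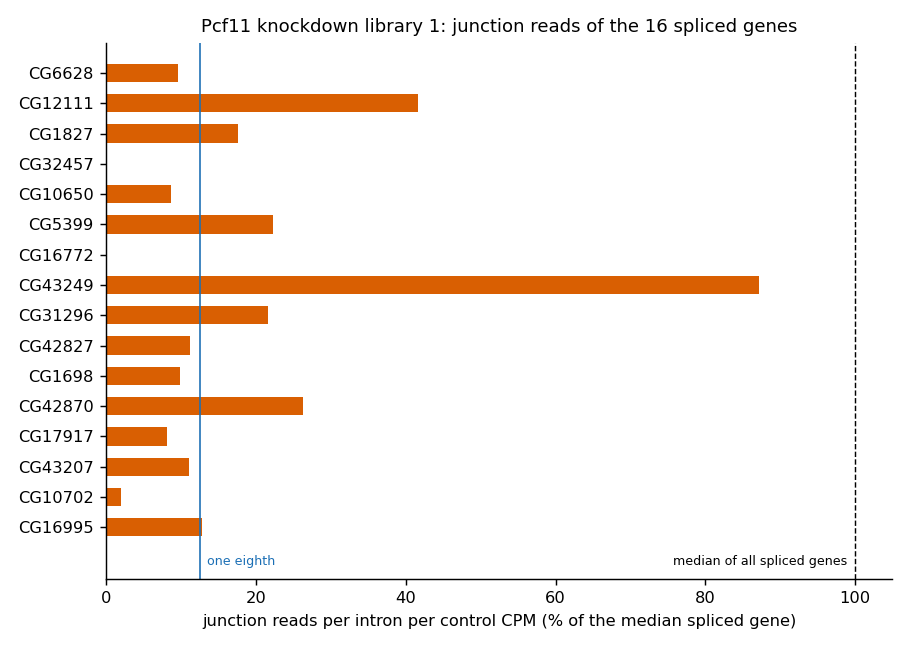
Junction reads per intron per control CPM in Pcf11 knockdown library 1, as a percentage of the median spliced gene (horizontal axis), for the 16 spliced members ordered by control CPM. The blue line marks 12.5% of the median and the dashed line the median. CG32457 and CG16772 are at 0 and CG43249 reaches 87.2%.

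CG32457 and CG16772 had 0 reads over their only annotated intron in this library. In library 2 they were at 0.458% and 0.228% of control. CG6628 had 413 junction reads over 2 introns, 9.60% of the ratio of the median gene, and CG10650 had 108 reads over 3 introns, 8.68%. CG12111 had 344 reads over 1 intron (41.6%) and CG1827 had 121 over 1 intron (17.6%). The 2 highest ratios were therefore those of CG43249 (174 reads, 87.2%) and CG12111, which also kept the largest shares of control in library 2, at 9.52% and 6.05%. Dividing by control CPM per kilobase of exon instead, a choice made after seeing the data, put 13 of the 16 members and 2.72% of all spliced genes under the limit. The highest value was then 18.0% for CG1698, which was at 3.09% of control in library 2. CG43249 was at 12.6% and CG12111 at 12.48%, so the match with the largest shares in library 2 did not hold. On that scale the median was 4.49% for the members, 61.2% for the genes low in cbc knockdown only, with 0 of 9 under the limit, and 17.4% for those low in Pcf11 knockdown only, with 10 of 39.

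The members lie apart from each other in the genome. The closest pair, CG10650 and CG10702 on 2L, is 68897 bases apart, and the next, CG31296 and CG5399 on 3R, 163767. The X chromosome carried 2 members, 2L 5, 2R 4, 3L 3 and 3R 5. The nearest gene on each side of every member was examined to see whether the change reached beyond the gene itself. These 38 neighbours were chosen by position alone, with gaps from 47 to 36622 bases, none was a member, and 34 passed the filter on low counts.

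Against control, 19 of the 34 neighbours fell and 8 rose in cbc knockdown, beside 37.8% and 36.3% of all 13960 genes (74.1% either way). In Pcf11 library 2, 19 fell and 7 rose, beside 36.4% and 32.6% (69.0% either way). With library totals the neighbours split into 15 lower and 11 higher for cbc and 20 lower and 3 higher for Pcf11. All genes then split into 3943 lower and 6374 higher for cbc and 6467 lower and 3280 higher for Pcf11. Both comparisons share the controls. The medians were -0.54 in cbc and -0.88 in Pcf11 knockdown, against -0.02 and -0.06 over all genes. Among the 17 neighbours at 10 CPM or more in both controls, 14 fell and 1 rose in cbc knockdown and 11 fell and 4 rose in the Pcf11 library. Of all 7691 genes at that level, 49.0% fell and 29.4% rose in cbc knockdown, and 41.3% fell and 36.9% rose in the Pcf11 library. No neighbour itself met the limit of 12.5% in both knockdowns with 10 CPM in control.

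**Figure D4:**
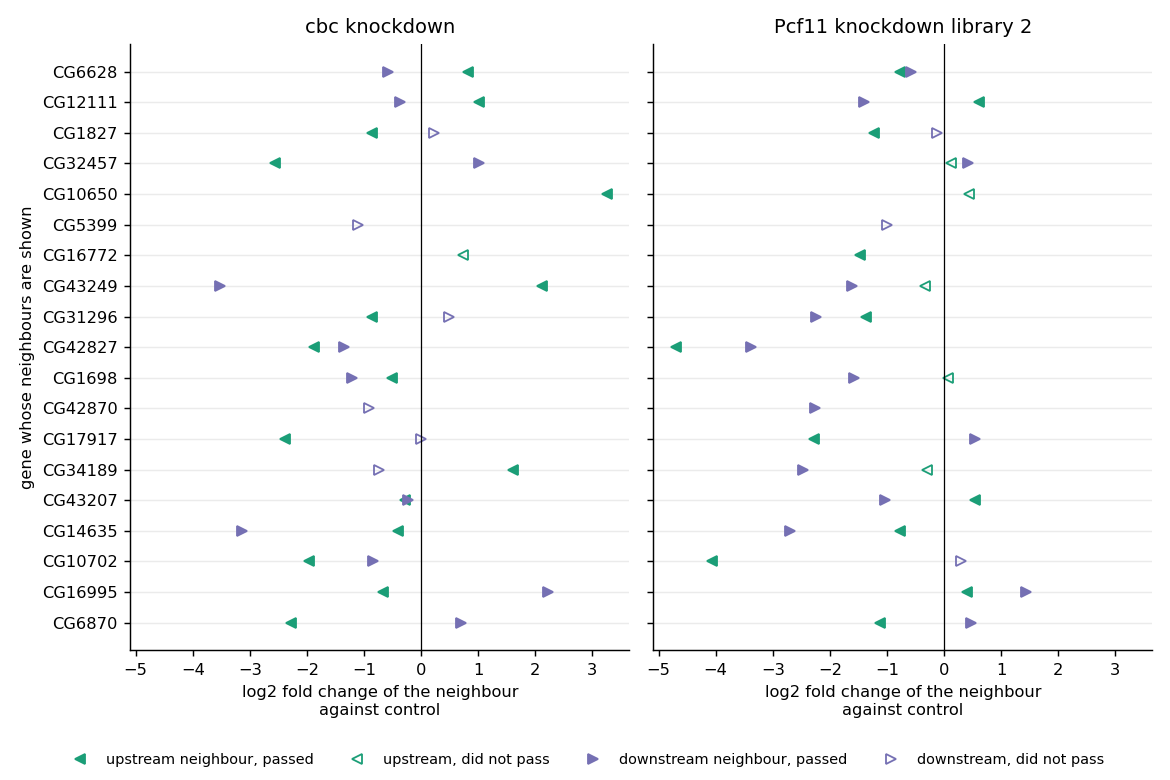
Log2 fold change against control of the gene nearest to each member upstream (left-pointing) and downstream (right-pointing), in cbc knockdown (left panel) and Pcf11 knockdown library 2 (right panel), with filled symbols for neighbours that passed edgeR's test. The lowest values are -3.53 for CG13043, beside CG43249, in cbc knockdown and -4.70 for lncRNA:CR44322, beside CG42827, in the Pcf11 library.

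CG42828 starts 102 bases downstream of CG42827 on the same strand. It was at 79.9 and 72.6 CPM in control, 6.03 CPM in the Pcf11 library and 43.4 and 28.0 CPM in the cbc libraries. It fell by 3.38 on the log2 scale in the Pcf11 library and by 1.35 in cbc knockdown (edgeR adjusted p = 2.0e-07 and 8.9e-06). On the other side of CG42827, lncRNA:CR44322 fell by 4.70 and 1.88. CG17572, the gene upstream of CG10702, was at 11.6 and 12.6 CPM in control, 0.595 CPM in the Pcf11 library and 4.17 and 3.22 CPM in the cbc libraries. It fell by 4.06 and 1.96 (edgeR adjusted p = 6.8e-08 and 3.9e-07). CG3713, downstream of CG14635 on the opposite strand, was at 41.8 and 35.0 CPM in control, 4.90 CPM in the Pcf11 library and 6.44 and 3.95 CPM in the cbc libraries, and it fell in both (-2.69 and -3.15). CG13043, downstream of CG43249, had log2 changes of -1.61 in the Pcf11 library and -3.53 in cbc knockdown from 7.65 CPM in control, and both passed. CG5267, downstream of CG34189, fell by 2.47 in the Pcf11 library from 0.781 CPM.

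Further neighbours that fell in cbc knockdown were lncRNA:CR45758 (-2.56), Osi20 of the Osiris family (-2.39) and lncRNA:CR44412 (-2.27), of which the last was at 32.9 CPM in control. The largest rises were of genes at low control levels. CG31792, beside CG10650, rose from 0.816 CPM to 9.92 and 8.63 CPM in the cbc libraries (3.26), and eys, which encodes an extracellular matrix protein of the fly eye, rose beside CG16995 in both knockdowns (2.22 and 1.45). asRNA:CR45890 rose in cbc knockdown (2.12) but did not pass with unstranded counts, Acp53C14c, named as an accessory gland protein, rose by 1.62 from controls at 0.670 and 2.35 CPM, and spirit, which encodes a serine protease, by 1.02. In the Pcf11 library spirit (0.62), the kinesin gene Klp59D (0.54), CG10298 (0.54) and Oli, which encodes a transcription factor (0.47), rose. Of these, spirit (0.33) and Oli (0.18) did not pass with library totals. The gene next to CG17917, CG10298, starts 128 bases downstream on the same strand at 105 and 107 CPM in control. The Pcf11 library had 127 CPM and the cbc libraries 130 and 123 CPM, so the low level of CG17917 stood beside a neighbour above its control level in plain CPM (log2 change 0.54, passed, in the Pcf11 library and 0.0015, not passed, in cbc knockdown).

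The gene bodies of 8 members were overlapped, each by 1 other gene. In cbc knockdown 6 of these 8 rose and 2 fell, and in the Pcf11 library 2 rose, 2 fell and 4 did not pass. Of all genes tested, 36.3% rose and 37.8% fell in cbc knockdown and 32.6% rose and 36.4% fell in the Pcf11 library. CG1688, which overlaps CG1698 on the opposite strand, rose by 1.54 in cbc knockdown, where CG1698 was at 9.47% of control. dpr10, which overlaps CG6628 on the same strand, fell by 1.43 in cbc knockdown and by 0.54 in the Pcf11 library. unc-104, a kinesin gene that overlaps CG34189, rose by 1.08 in cbc knockdown.

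Antisense reads were scarce at the members. Over the 18 members other than CG10702 they summed to 205 and 210 reads in control, 79 in the Pcf11 library, and to 78 and 95 in the shallower cbc pair. Per 100 sense reads these were 0.0905 and 0.0945 in control, 1.05 in the Pcf11 library, then 3.31 and 3.98 after cbc knockdown. The rule chose the sense reads to be low in the knockdowns, so a rise of this ratio is built in unless antisense reads fell as far. Scaled to all antisense gene reads of a library, in CPM, the antisense reads were 84.2 and 89.7, then 30.6, and then 113 and 123. Of the members, 7 including CG10702 are overlapped by a gene of the opposite strand, whose reads can count as antisense, so the sum mixes both. Without such an overlap, CG6628, CG32457, CG43249 and CG5399 had antisense log2 changes of -1.92, -6.95, -1.36 and -1.37 in cbc knockdown. Of these, CG5399 did not pass. In control, CG6628 had 0.050 and 0.037 antisense reads per 100 sense reads, and CG32457 had 0.075 and 0.116. Sense reads counted on the wrong strand would fall with the sense reads that the rule chose to be low. Such leakage and a fall of antisense RNA cannot be told apart here. Untested CG17917 had 4 and 2 antisense reads in control and 5 and 9 in the cbc libraries. CG42827, also untested, had 14 and 8, then 6 and 8. CG10702, which overlaps CG17343 on the opposite strand, alone had 760 and 1002 antisense reads in control and 893, 270 and 312 in the knockdowns.

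Only 7 members had enough antisense reads for the test, and possible leakage from the falling sense reads limits what it can show. In cbc knockdown 4 fell and 1 rose, beside 27.1% and 28.5% of 8524 genes tested. In the Pcf11 library 2 fell and 0 rose by edgeR (3 with an unadjusted p under 0.05, and 1 lower and 0 higher by DESeq2), beside 20.6% and 22.0%. Antisense reads of CG1827, which clos overlaps on the opposite strand, went from 19 and 23 in control to 17 and 35 in the cbc libraries. The log2 fold change was 1.54 ± 0.38 (edgeR adjusted p = 0.0012), a call that was lost without cbc library 2 (1.07). CG6628 had 37 and 27 antisense reads in control and 3 in the Pcf11 library, and CG32457 had 17 and 23 in control, 3 in the Pcf11 library and 0 in both cbc libraries. These calls were few and moved with single libraries: the lower ones in cbc knockdown numbered 0 without control 2, 2 without control 1 or cbc library 1, and 0 in DESeq2, and those in the Pcf11 library numbered 0 without either control.

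The members were compact genes. Their median exon length was 721 bases, against 1514.5 for all CG-numbered genes at this control level and 1951 for all genes at this level. They had a median of 188 codons and of 1 intron, and 8 of 19 encoded fewer than 150 codons (42.1%), against 14.6% of the CG-numbered genes. The CG-numbered genes under the limit in cbc knockdown only (20 genes) had a median exon length of 761.5 bases, and 45.0% encoded fewer than 150 codons, but 55.0% had no intron, against 15.8% of the members. Those under the limit in Pcf11 knockdown only (44 genes) had a median exon length of 1683 bases, 13.6% under 150 codons and 11.4% without introns. The 16 genes with other symbols under the limit in both knockdowns had a median exon length of 1191 bases and a median of 340 codons. Of their 14 coding genes, 0 encoded fewer than 150 codons, so a short coding sequence was not shared by these genes low in both knockdowns. A gene of the opposite strand overlapped 7 of the members (36.8%), against 38.4% of the CG-numbered genes. None of these differences was tested.

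Applied to genes with other symbols, the same limits found 16. Beside the scpr genes they included Tsf1, which encodes an iron-binding transferrin, at 726 and 862 CPM in control, 20.0 CPM in the Pcf11 library and 33.1 and 26.9 CPM in the cbc libraries. Uro, which encodes urate oxidase, was at 25.0 and 24.0 CPM in control, 1.86 CPM in the Pcf11 library and 1.79 and 0.731 CPM in the cbc libraries. CAH5, of the carbonic anhydrase family, was at 43.3 and 47.6 CPM in control, 0.734 CPM in the Pcf11 library and 2.74 and 1.95 CPM in the cbc libraries. Tbh, which encodes the enzyme that makes octopamine, was at 21.0 CPM in both controls, 1.16 CPM in the Pcf11 library and 1.27 and 1.56 CPM in the cbc libraries. The cuticle protein genes Cpr92A and Cpr97Eb and the receptor gene mthl9 were also among them. In Pcf11 library 1, 8 of 15 spliced genes of this group were under the junction limit.

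Regulators of gene expression in spermatocytes were taken as a list of known genes, not by a limit on their level. The list does not sort them by whether they turn transcription on or hold it back. The members were chosen for a large fall, so the sizes of change cannot be set against each other. Any part of the regulators in the levels of the members was not tested. Of 16 listed genes 15 were measured under their symbol, and rye was not matched. In cbc knockdown 8 fell and 1 rose, and in the Pcf11 library 10 fell and 2 rose, with medians of -0.26 and -0.68. Of all genes tested, 37.8% fell and 36.3% rose in cbc knockdown (49.0% and 29.4% of those at 10 CPM or more in both controls), and 36.4% fell and 32.6% rose in the Pcf11 library (41.3% and 36.9%). With library totals 4 rose and 6 fell in cbc knockdown. The tMAC subunit gene aly was at 38.8 and 44.8 CPM in control, 17.5 CPM in the Pcf11 library and 20.3 and 18.5 CPM in the cbc libraries (-0.97 and -1.35). The testis TAF gene sa went from 48.5 and 53.5 CPM to 25.6 CPM and to 26.7 and 24.1 CPM, and mia rose in both (0.96 and 0.52). The lowest value was that of aly in cbc knockdown and that of wuc in the Pcf11 library (-1.32 ± 0.11).

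Markers of the cells in and near the testis showed what the libraries held. Summed spermatid markers (12 of 12 measured) were at 13941 and 12917 CPM in control, 10215 CPM in the Pcf11 library and 5912 and 5719 CPM in the cbc libraries, with 11 of the 12 lower and 1 higher in cbc knockdown by edgeR's test. In the Pcf11 library 1 was lower and 3 were higher, and the lower one, Mst84Db, went from 3333 and 3214 CPM in control to 925 CPM. Spermatocyte markers (6 of 6) were at 1078 and 1039 CPM in control, 2133 CPM in the Pcf11 library and 1681 and 1778 CPM in the cbc libraries. This list went both ways: 3 were higher and 3 lower in the Pcf11 library, and 3 higher and 2 lower in cbc knockdown. The translation regulator gene bol, at 764 and 694 CPM in control, made up most of the sum, while aly and sa fell in both knockdowns and can in the Pcf11 library. Hub and cyst cell markers (6 of 6) were at 181 and 192 CPM in control, 73.6 CPM in the Pcf11 library and 125 and 108 CPM in the cbc libraries. Within this list tj, Fas3 and hh fell in both knockdowns. The log2 changes in cbc knockdown and the Pcf11 library were -0.07 and -0.25 for eya, -0.13 and -0.19 for zfh1, and -2.55 and -0.25 for upd1. Muscle sheath markers (8 of 8) were at 718 and 769 CPM in control, 387 CPM in the Pcf11 library and 631 and 567 CPM in the cbc libraries. Of the hub and cyst markers 4 were lower in cbc knockdown and 3 in the Pcf11 library, and of the muscle sheath markers 7 were lower and 1 higher in each, by edgeR's test. Germ line markers (3 of 4 matched) were at 51.4 and 60.2 CPM in control, 13.8 CPM in the Pcf11 library and 47.1 and 36.5 CPM in the cbc libraries, with 3 lower in the Pcf11 library and 1 lower in cbc knockdown. Accessory gland markers (11 of 11) differed between the controls, at 89.4 and 241 CPM, and were at 96.5 CPM in the Pcf11 library and 383 and 312 CPM in the cbc libraries. In cbc knockdown 5 of these were higher, and in the Pcf11 library 1 was lower. Ejaculatory duct and bulb markers (5 of 5) were at 42.0 and 40.7 CPM in control, 19.1 CPM in the Pcf11 library and 51.1 and 50.9 CPM in the cbc libraries, with 2 higher and 1 lower in cbc knockdown and 2 lower in the Pcf11 library. Fat body markers (8 of 8) were at 8.50 and 9.13 CPM in control, 23.4 CPM in the Pcf11 library and 44.6 and 55.2 CPM in the cbc libraries, with 5 higher in cbc knockdown and 6 higher and 1 lower in the Pcf11 library. Fat body Yp1 and Yp2 had 0 reads in control 2, and no other listed marker was at 0. The part of these shifts in the levels of the 19 genes was not tested.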

How the data were processed

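The authors deposited raw counts of reads per gene for 5 of the 6 libraries and raw counts of reads per splice junction for Pcf11 knockdown library 1. Per the submitters' processing notes, the tools were STAR, Trim Galore, deepTools and SAMtools, with BDGP6 and dm6 as builds. Their versions and the annotation behind the counts were not given in the sources. The deposited gene tables give unstranded counts and counts by strand, in the layout of STAR's gene counter, and the column with most reads was taken as sense. Each table began with 4 totals that name no gene, which stayed out of library sizes: reads in no gene were 1.35% to 2.86% of the reads in genes, in no gene or in several, and reads in more than 1 gene 4.45% to 4.88%. Only uniquely mapped reads were counted, so close gene copies are uncertain. Symbols, exons and coordinates came from Ensembl release 115 (BDGP6), in which 17710 of 17807 identifiers were found.

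Levels are CPM of the sense counts. Tests used edgeR 4.0.16 in R 4.3.3 with TMM scaling and the quasi-likelihood test, genotype as the only term, genes that reached 10 counts in 2 or more libraries, all 5 libraries in 1 fit (2 residual and 9.33 prior degrees of freedom), two-sided, adjusted by Benjamini-Hochberg over all genes, with a threshold of 0.05. Antisense counts were fitted in the same way (8524 genes). The SE given with edgeR log2 changes is the absolute log2 change divided by the square root of the F statistic of the test. DESeq2 1.42.0 was an alternative. The procedure was run on simulated counts for cbc minus Pcf11 only, with the same spread for all genes and changes in few genes, all at a mean of 10 CPM or more. That setting does not cover data in which most genes moved. Intervals are exact at 95% and cover counting error only. Junctions were matched to annotated introns of a single gene.

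Members, lists and tests were chosen with earlier results of these data known. Genes described in full were the 12 most abundant members, the members with the largest differences between knockdowns each way, those at the limit, the spliced members with the highest control level, and the 5 neighbours with the largest change each way. Pairs of members within 10 kb would have been named, and there were none. Planned comparisons of promoter sequences were not made, and lengths of coding sequence are in codons from the annotation.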

Additional observations from a re-analysis of the deposited data

How the results depend on the processing

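The 19 genes all remained with TMM-scaled CPM and without either control, and 17 of them with unstranded counts. They also remained without either cbc library, but this was fixed in advance, because leaving such a library out only removes a condition. Without a single control or cbc library the genes past the rule numbered 19 to 22. The number depends on the limits: 44 genes at one part in 4, 10 at one part in 16, 34 with a control floor of 1 CPM and 12 with 50 CPM. In the comparison of the knockdowns, library totals gave 11 members higher, and for all genes 2452 lower; the median gene shifted by 0.53 on the log2 scale. With only the libraries compared, 4 members were lower. Leaving out a library gave 4 to 7 members higher and 7 to 8 lower. CG17917 reversed with unstranded counts (0.020) and CG1827 with library totals (0.44). Neighbours that rose in the Pcf11 library numbered 3 with library totals. Regulators that rose in cbc knockdown numbered 2 with RLE factors, 4 with library totals, 2 with only the libraries compared and 1 to 2 without a library, and in the Pcf11 library 1 with library totals. RLE moved the Pcf11 contrast by 0.15.

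Antisense calls at members moved with several settings. Those lower in cbc knockdown numbered 2 with library totals, 0 with DESeq2 and 0 to 3 without a library, and those higher 3 without the filter and 0 to 1 without a library. In the Pcf11 library, 1 was lower with DESeq2 and 0 to 3 without a library. CG10702 reversed with library totals (0.12). Over all genes, antisense calls numbered 1415 lower with library totals and 1485 lower with DESeq2 for cbc, and 1027 higher and 782 lower with DESeq2 for Pcf11. The cause was not tested.

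Replicate numbers pair no samples by the labels, and the deviations of control 1 and cbc 1 correlated at -0.13 over 11993 genes. With the replicate block, 8 members were lower and 4 higher between the knockdowns, and no count at members, neighbours or regulators moved by over 1.5 times. With crossed numbers, added after seeing the data, 7 were lower and 5 higher, and 1 antisense call was lower in the Pcf11 library. The junction count was 9 to 13 of 16 over 6 alternatives. Depth limits the cbc libraries, where CG32457, CG42870, CG17917 and CG43207 had at most 6 reads in either library.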
